A study of Mus musculus with 4 samples.

Results

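The genes described here build and load MHC class I, the molecule through which nucleated cells display fragments of their own proteins. The set is 10 genes, taken by symbol from the 31053 genes of the count tables. H2-K1 and H2-D1 encode the classical class I heavy chains and H2-Q7 a non-classical one, B2m encodes the light chain, Tap1 and Tap2 the peptide transporter, Tapbp the loading chaperone tapasin, Psmb8 and Psmb9 catalytic subunits of the immunoproteasome, and Nlrc5 the transcriptional activator of the pathway. All 10 had 1 row in the tables and at least 1 UMI (unique molecular identifier, one captured RNA molecule) in each library. Cells came from the stroma-enriched submandibular salivary gland of female C57BL6/J mice and were sequenced on the 10x Genomics platform in 4 libraries. In the 2 deligated libraries (14 weeks of age), metal clips had closed the excretory ducts of both the submandibular and the sublingual gland for 14 days and had been off for 5 days at harvest. The 2 homeostatic libraries (12 weeks of age) came from glands without any surgery, so age differed along with surgery. All 4 suspensions had been depleted of EpCAM-positive epithelial cells, Ter119-positive red cells and dead cells. The labels speak of 2 glands and do not say how many animals gave a library, so p-values measure the spread between these libraries, which may be technical in part.

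As background, proteins are cut by the proteasome, in which interferon-inducible subunits can replace the constitutive ones. The peptides are pumped into the endoplasmic reticulum by the TAP1 and TAP2 heterodimer, and tapasin bridges TAP to a heavy chain paired with beta-2 microglobulin until a peptide is bound. CD8 T cells read the loaded complex, and natural killer (NK) cells read its presence through inhibitory receptors. Interferon gamma induces the whole pathway through IRF1 and NLRC5, and NLRC5 acts at class I promoters together with RFX and other factors that bind a composite element called the SXY module. Vessel endothelium and leukocytes are known for high class I levels, and secretory epithelium for low ones.

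After filtering, 33695 cells remained, between 4357 and 10900 per library, with median depths of 6032 and 5177 UMIs per cell in the deligated libraries and 2900 and 2725.5 in the homeostatic ones. Between 14 and 54 cell barcodes were shared by any 2 libraries. Of 34 clusters, 28 were named by resemblance to fixed marker lists, giving 11 classes. A minimum of 100 cells per library was met by 4 classes, and mural-like cells had at least 77. Unnamed clusters held 122, 278, 2814 and 3077 cells in deligated 1, deligated 2, homeostatic 1 and homeostatic 2, the order used for all groups of 4 values below. The file headers name Cell Ranger 6.0.1 for both deligated libraries and 7.0.0 for both homeostatic ones. These versions differ in whether intron reads are counted by default, and the setting used is not given in the sources used here. Software version, age and surgery cannot be told apart in any group comparison. Endothelial-like, NK and innate lymphoid-like, T cell-like and fibroblast-like cells of the 2 groups fell mostly into different clusters: clusters 2 and 17 against 1, 18 and 22 for endothelial-like cells, 4 and 14 against 6 for NK and innate lymphoid-like cells, 8 and 25 against 24 for T cell-like cells, and 11 against 21 for fibroblast-like cells. Endothelial-like clusters 7 and 19 and the mural-like cluster 13 held cells of all 4 libraries. In such sums, fewer cells of a subtype and less RNA per cell cannot be told apart.

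The 4 promoter windows in which a shared arrangement of motifs was found are printed here because they belong to both classical heavy chains, the non-classical H2-Q7 and the light chain. They are RefSeq sequences of build GRCm38.p6, 5′ to 3′ on the gene's strand, from 250 bases before to 50 bases after the start site. Of the 10 genes, 8 matched an entry of the promoter table by symbol. Capitals mark matches to the NF-kB consensus, to an IRF-type motif (GAA, any 2 bases, then GAAAC) and to the bases TGACG and ATTGG of a pair in which 18 to 22 bases lie between them. Both strands were searched.

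H2-K1 (chr17:34000298-34000597, minus strand): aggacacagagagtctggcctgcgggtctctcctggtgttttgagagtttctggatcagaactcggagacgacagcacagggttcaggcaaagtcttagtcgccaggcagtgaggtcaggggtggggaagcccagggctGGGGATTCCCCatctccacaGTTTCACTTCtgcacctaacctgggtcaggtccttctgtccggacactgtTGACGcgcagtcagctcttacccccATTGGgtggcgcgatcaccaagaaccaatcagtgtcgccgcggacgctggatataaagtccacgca

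H2-D1 (chr17:35262844-35263143, plus strand): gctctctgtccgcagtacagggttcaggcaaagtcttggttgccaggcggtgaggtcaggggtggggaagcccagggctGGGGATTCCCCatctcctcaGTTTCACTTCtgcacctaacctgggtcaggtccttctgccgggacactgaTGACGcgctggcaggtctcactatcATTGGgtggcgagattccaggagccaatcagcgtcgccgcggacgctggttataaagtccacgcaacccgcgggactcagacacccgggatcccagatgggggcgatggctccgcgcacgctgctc

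H2-Q7 (chr17:35438905-35439204, plus strand): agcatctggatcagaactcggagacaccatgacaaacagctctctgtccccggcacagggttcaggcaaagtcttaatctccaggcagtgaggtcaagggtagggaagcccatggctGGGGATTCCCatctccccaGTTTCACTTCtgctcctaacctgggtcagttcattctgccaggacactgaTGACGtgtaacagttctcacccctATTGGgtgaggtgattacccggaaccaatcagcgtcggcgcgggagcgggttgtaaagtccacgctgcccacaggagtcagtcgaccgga

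B2m (chr2:122147437-122147736, plus strand): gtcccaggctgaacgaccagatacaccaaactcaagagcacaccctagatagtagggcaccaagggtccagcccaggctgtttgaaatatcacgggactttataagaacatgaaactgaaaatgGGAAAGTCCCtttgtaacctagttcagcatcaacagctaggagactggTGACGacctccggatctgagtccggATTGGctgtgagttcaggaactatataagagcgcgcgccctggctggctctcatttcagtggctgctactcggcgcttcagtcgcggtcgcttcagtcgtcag

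The pair of TGACG and ATTGG was present in all 4 of these windows and in 88 of 32851 promoters (0.268%). It resembles the X2 and Y boxes of the SXY module, and its letters and spacing were chosen after these sequences had been seen. The gap was 20 bases in H2-K1, H2-D1 and B2m and 19 bases in H2-Q7, and the first base lay 41, 101, 78 and 64 bases before the start site in H2-K1, H2-D1, B2m and H2-Q7. The table holds a second H2-K1 window for another start site, with the same matches and the pair 55 bases before that site. The IRF-type motif was found in the 3 heavy chain windows, each time as GTTTCACTTC on the printed strand, and in 1.73% of all promoters. The NF-kB consensus was found in all 4 windows and in 8.46% of all promoters. In H2-K1 and H2-D1 it matched at 2 overlapping positions (GGGGATTCCC and GGGATTCCCC), in H2-Q7 once as GGGGATTCCC and in B2m once as GGAAAGTCCC. A GAS-type motif (TTCNNNGAA), present in 8.3% of all promoters, had 1 match among the genes of the set, in Psmb8 (TTCCCAGAA, 97 bases before the start site). The windows of Tap1, Psmb9 and Tapbp held no match to any of the motifs. Tap1 and Psmb9 are transcribed away from each other from start sites 226 bases apart, and their windows share 275 bases. A match is a description of letters, not of a bound site.

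Most of the genes lie in the MHC region of chromosome 17. H2-K1, Tapbp, Psmb9, Tap1, Psmb8 and Tap2 lie between chr17:33915899 and chr17:34216321 (GRCm38), and H2-D1 and H2-Q7 lie further along the same chromosome at chr17:35262730-35267499 and chr17:35439155-35443773. B2m is at chr2:122147686-122153083 and Nlrc5 at chr8:94434356-94527272. Total intron length separates Nlrc5 from the rest: 84.42 kb, against 0.35 kb in Psmb8 and H2-Q7, 1.39 kb in H2-K1 and 9.77 kb in Tapbp, the longest of the other genes. Several gene models overlap a neighbour, and whether counting used strand is not given in the sources used here. Nlrc5 overlaps 9330175E14Rik and B2m overlaps Patl2 on the other strand, Tap1 and Psmb9 overlap each other, Tap2 and Psmb8 overlap Gm20496 on the other strand, and Tapbp overlaps Zbtb22 on the same strand. The heavy chains also resemble each other: of the 90-base words in the last 500 bases of their transcripts, 2.31% in H2-K1, 8.93% in H2-D1 and 3.87% in H2-Q7 occur in another gene, so reads of these genes can be split or lost, while the other genes of the set share none.

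Levels are given in CPM, the UMIs of a gene per 1000000 UMIs of all cells of a class in a library. They are compared between classes and libraries within 1 gene, not between genes. In homeostatic glands the heavy and light chains were lowest in mural-like and epithelial-like cells, and their highest means were in immune, endothelial-like or, for H2-D1, Schwann-like cells, as the plot of mean levels over all named classes shows. H2-K1 averaged 2044 ± 140 (SD, n = 2 libraries) in NK and innate lymphoid-like cells and 2013 ± 41.1 in endothelial-like cells, which did not differ beyond their spread, and 1934 ± 32.2 in T cell-like cells. It was 814 ± 5.62 in fibroblast-like, 708 ± 33.2 in macrophage-like, 173 ± 75.8 in mural-like and 93.6 ± 1.04 in epithelial-like cells. The ranges of the 2 libraries did not overlap between macrophage-like and mural-like cells, nor between mural-like and epithelial-like cells.

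H2-D1 was led by Schwann-like cells (2630 ± 316) and endothelial-like cells (2506 ± 83.6), whose ranges overlapped, and fell to 94.8 ± 2.73 in epithelial-like cells. B2m was highest in macrophage-like cells (2124 ± 214), all of which belong to the shallow cluster 10 (median 1181 UMIs per cell), followed by endothelial-like (1894 ± 62.8) and NK and innate lymphoid-like cells (1561 ± 80.2), each apart from the one above. It was 238 ± 94.3 in mural-like and 100.2 ± 0.741 in epithelial-like cells. H2-Q7 was highest in T cell-like cells (732 ± 27.9), followed by NK and innate lymphoid-like (573 ± 33.8) and endothelial-like cells (357 ± 11.1), each apart from the next. B cell-like cells had 173 ± 64, against 7.78 ± 5.28 in mural-like and 65.4 ± 8.08 in fibroblast-like cells. Schwann-like, B cell-like, dendritic-like and erythroid-like values rest on 4 to 78 cells per library.

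The loading genes had another order. Endothelial-like cells had the highest homeostatic mean of Tapbp (218 ± 0.49), above erythroid-like (146 ± 28.9), fibroblast-like (124 ± 1.91) and NK and innate lymphoid-like cells (110 ± 1.36), and of Tap2 (164 ± 17.4). Tap1 was highest in Schwann-like cells (90.6 ± 17.2, from 12 and 8 UMIs) and endothelial-like cells (67.9 ± 0.814). In the erythroid-like cells the 12 endothelial markers summed to between 13890 and 15270 CPM in each library, so their values are not those of red cells alone. Psmb8 was highest in dendritic-like cells (1218 ± 18.6), then T cell-like (778 ± 45) and macrophage-like cells (715 ± 37.8), and was 28.6 ± 2.44 in mural-like cells. The dendritic-like class also carried markers of other lists: in the 2 homeostatic libraries the 10 dendritic markers summed to 1093 and 876 CPM, the 15 NK and innate lymphoid markers to 2775 and 2487 (9 and 6 of them at 0), and the 12 macrophage markers to 6587 and 213 (0 and 7 at 0). The same NK and innate lymphoid list summed to 4165 and 3702 CPM in homeostatic macrophage-like cells, so it is not specific to NK cells. The part of these markers in the dendritic-like values, which also rank high for Nlrc5, was not tested.

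Nlrc5 had another order in the homeostatic libraries. T cell-like (150 ± 15.6), dendritic-like (120 ± 64.4) and NK and innate lymphoid-like cells (86.3 ± 1.13) led, the dendritic-like range overlapping both others, and were followed by Schwann-like (58.8 ± 13.8) and endothelial-like cells (35.2 ± 0.586). B cell-like cells, with 0 and 2 UMIs, averaged 16 ± 22.6. Fibroblast-like cells had 8.18 ± 0.126, macrophage-like cells 5.8 ± 0.907 and epithelial-like cells 1.83 ± 0.271. The macrophage-like value depends on which cells carry that name. Cluster 9 (550 and 513 homeostatic cells, median 6482 UMIs) had 12 of the 12 macrophage markers but was left unnamed by the naming rule, and there Nlrc5 was at 43.6 and 48 CPM and B2m at 1718 and 1649 in the homeostatic libraries. At Leiden resolution 2.0 the macrophage-like class grew from 529 and 541 to 881 and 894 homeostatic cells, with Nlrc5 at 42.5 and 42.3 CPM. In the deligated libraries that wider class had Nlrc5 at 5.99 and 8.96 CPM, from 1 UMI in 34 cells and 4 UMIs in 90 cells, below both homeostatic values, and this difference was not tested. In the narrower class of cluster 10 no Nlrc5 UMI was counted among 25449 and 62767 deligated UMIs, which allows up to 118 and 47.8 CPM (3 counts of the total), so a difference was not detectable there.

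**Figure D1:**
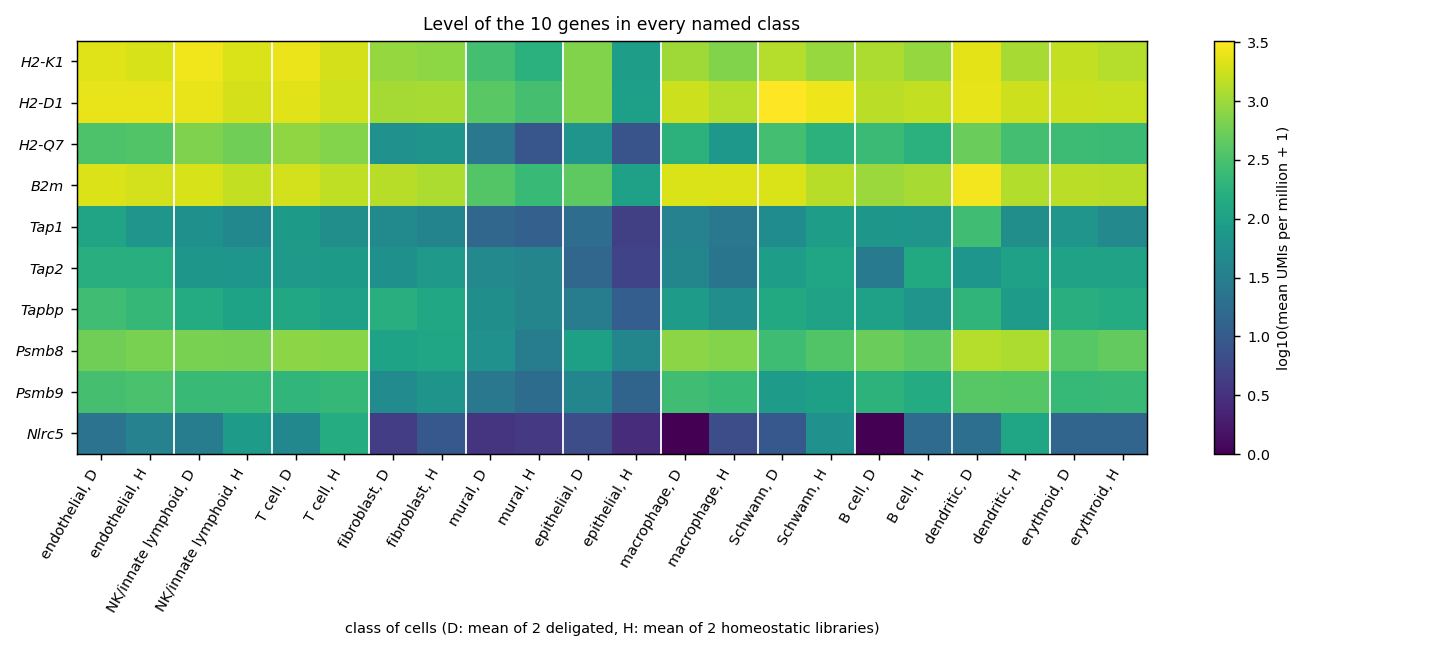
Colour shows log10 of the mean CPM plus 1 for each of the 10 genes (rows) in the 11 named classes (columns), with the mean of the 2 deligated (D) and of the 2 homeostatic (H) libraries side by side. Among the homeostatic columns the epithelial-like and mural-like ones are the darkest for the heavy and light chains, with H2-K1 at 93.6 and 173 in the homeostatic libraries.

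The first comparison asks whether these genes differ between deligated and homeostatic glands within a class. UMIs of all cells of a class were added up in each library, and edgeR's quasi-likelihood test was applied to these sums, with p-values adjusted by Benjamini-Hochberg across every gene tested in the class and called below 0.05. In endothelial-like cells 1 of 10 genes passed, Nlrc5, which was lower, where 34.8% of 13235 tested genes passed (12.7% higher and 22.1% lower). H2-K1 was at 1851, 2513, 2042 and 1984 CPM in deligated 1, deligated 2, homeostatic 1 and homeostatic 2. The homeostatic libraries thus lay between the deligated ones, and the log2 difference was 0.13 (SE 0.13 and edgeR adjusted p = 0.48). H2-D1 was at 2096, 2828, 2566 and 2447 and B2m at 1651, 2659, 1939 and 1850, again with both homeostatic libraries inside the deligated range. In all, 7 of the 10 genes had this arrangement in endothelial-like cells, as did 14.8% of the 9827 genes at a mean of 5 CPM or more.

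Tap1 and Tapbp were the endothelial exceptions in the upward direction. Tap1 was at 72.8, 148, 68.5 and 67.3 CPM, so both deligated libraries were above both homeostatic ones, but deligated 1 only slightly. Its log2 fold change of 0.71 (SE 0.28) did not pass (edgeR adjusted p = 0.094), and neither did that of Tapbp, 0.32 (SE 0.15, edgeR adjusted p = 0.15). Nlrc5 was at 15.8, 26 and, in the homeostatic libraries, 34.8 and 35.6, a log2 difference of -0.74 (SE 0.19 and edgeR adjusted p = 0.029). The call held in 13 of 17 alternatives and was lost, among others, once fold changes were corrected for intron length (-0.41, edgeR adjusted p = 0.16). Epithelial markers split by group in these sums: the 20 of them totalled 36.4 and 63.7 CPM in the deligated libraries (5 and 2 at 0) and 1180 and 1283 in the homeostatic ones (none at 0). Other lists split as well, among them the 10 B cell markers at 628 and 743 CPM against 1466 and 1442 (4, 2, 3 and 6 at 0). The 12 fibroblast markers were at 62.4 and 228 against 19.9 and 21.1. Their part in this and the group differences that follow was not tested.

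NK and innate lymphoid-like cells had the most calls: 7 of 10 genes passed, 6 higher and 1 lower in the deligated libraries, where 43.4% of 11577 tested genes passed (16.7% higher and 26.8% lower). H2-K1, the heavy chain with the largest change here, was at 2526, 2951, 2143 and 1945 CPM. Both deligated libraries were above both homeostatic ones, with a log2 difference of 0.51 (SE 0.09 and edgeR adjusted p = 0.0022). H2-D1 was at 2320, 2694, 1971 and 1880 and rose by 0.47 (SE 0.08, edgeR adjusted p = 0.0026). B2m was at 1671, 2279, 1618 and 1505, so that deligated 1 stood close to the homeostatic libraries, and rose by 0.43 (SE 0.12, edgeR adjusted p = 0.022).

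H2-Q7 was at 657, 693, 596 and 549 CPM in these cells and rose by 0.33 on the log2 scale (SE 0.08, edgeR adjusted p = 0.010), but stood at -0.02 with the intron trend taken out. Among the loading genes, Tap1 was at 51.6, 63.1, 43 and 41.2 and rose by 0.55 (SE 0.11, edgeR adjusted p = 0.0046). Tapbp was at 129, 161, 109 and 111 and rose by 0.49 (SE 0.10, edgeR adjusted p = 0.0061). Tap2, the partner of Tap1 in the transporter, was at 57.2, 84.2, 73.4 and 64.9, with both homeostatic libraries inside the deligated range. Psmb8 (639, 647, 638 and 618) and Psmb9 (227, 241, 235 and 231) varied by little among the libraries and did not pass.

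Nlrc5 moved the other way in the NK and innate lymphoid-like cells. It was at 27.9 and 29.4 CPM in the deligated libraries (158 and 376 UMIs) and at 87.1 and 85.5 in the homeostatic ones (591 and 601 UMIs). The groups were far apart, and the log2 difference was -1.50 (SE 0.09 and edgeR adjusted p = 1.2e-05). The activator was thus lower in the class sums in which H2-K1, H2-D1, B2m, H2-Q7, Tap1 and Tapbp were higher under this scaling. Markers of other cell types moved with the group here too. The 20 epithelial markers summed to 162 and 239 CPM in the deligated and to 1244 and 1246 in the homeostatic libraries (10, 3, 3 and 1 of them at 0), and the 12 fibroblast markers to 70.8 and 230.1 against 16.7 and 14.2 (0, 0, 3 and 3 at 0).

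The upward calls in NK and innate lymphoid-like cells depended on how the libraries were scaled. When the scaling rested on genes with at most 2 kb of intron, which moved the median of all tested genes to -0.31 on the log2 scale, the split became 0 higher and 2 lower (3.22% and 41.1% of all tested genes), H2-K1 stood at 0.19 (SE 0.08, edgeR adjusted p = 0.11) and Psmb9 at -0.23 (edgeR adjusted p = 0.048). After correction of the fold changes for their trend on intron length, Nlrc5 was the 1 gene of 10 that passed, as lower, where 12.4% of all tested genes passed as higher and 16.5% as lower. Relative to all tested genes, whose median was 0.01, the median of the 10 genes was 0.38, and after correction for intron length it was 0.07 against 0.00.

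T cell-like cells gave 4 calls among the 10 genes, 3 higher and 1 lower, where 21.6% of 9839 tested genes passed (6.04% higher and 15.5% lower). H2-K1 was at 2273, 2864, 1956 and 1911 CPM and rose by 0.54 on the log2 scale (SE 0.12, edgeR adjusted p = 0.0092). H2-D1 was at 2009, 2493, 1893 and 1755 and rose by 0.43 (SE 0.12, edgeR adjusted p = 0.027). In both genes the deligated libraries were above the homeostatic ones, H2-D1 by a small margin for deligated 1. Tap1 was at 78.2, 84.9, 60.7 and 46.1, from 48 to 363 UMIs, and rose by 0.75 (SE 0.19, edgeR adjusted p = 0.019). In the same T cell-like sums the 20 epithelial markers were at 128 and 226 CPM in the deligated and at 1076 and 1484 in the homeostatic libraries (11, 8, 6 and 5 at 0), and the 12 fibroblast markers at 80 and 263 against 17.8 and 30.7 (0, 0, 7 and 7 at 0). The 15 NK and innate lymphoid markers summed to 2505, 5162, 3450 and 3122, and the 8 erythroid markers to 6423 in homeostatic 1 and to between 190 and 528 in the other libraries.

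Of the other T cell-like values, B2m was at 1552, 2225, 1600 and 1452, with overlapping groups, and did not pass (log2 fold change 0.44, SE 0.15, edgeR adjusted p = 0.066). Psmb8 (837, 774, 746 and 810) and Psmb9 (184, 228, 233 and 205) overlapped as well. Nlrc5 was at 41.8 and 43.5 CPM in the deligated and at 139 and 161 in the homeostatic libraries, without overlap, a log2 difference of -1.68 (SE 0.16 and edgeR adjusted p = 7.2e-05). The 3 upward calls were lost on short-intron scaling, after the intron correction, without homeostatic replicate 1 and without homeostatic replicate 2, where 1.13%, 4.00%, 0.623% and 0.707% of all tested genes passed as higher. The scaling and the intron correction lowered the fold itself, for H2-K1 to 0.18 and 0.20, whereas without a homeostatic library it stayed at 0.56 and 0.52 with a larger SE of 0.16 in both. Tap1 stood at 0.96 without homeostatic replicate 1 and at 0.56 without homeostatic replicate 2. Deligated T cell-like cells were mostly those of cluster 8, led by Cd8b1 and Cd8a, with a smaller cluster 25 led by Cd163l1 and Il17a, and homeostatic ones mostly those of cluster 24, led by Cd8b1 and Themis. Within cluster 8 Nlrc5 was at 47.2 and 45.6 CPM and within cluster 24 at 147 and 159. In cluster 25, which held cells of all 4 libraries, it was at 27.3, 26.5, 85.9 and 167 CPM, from 24, 12, 8 and 25 UMIs.

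**Figure D2:**
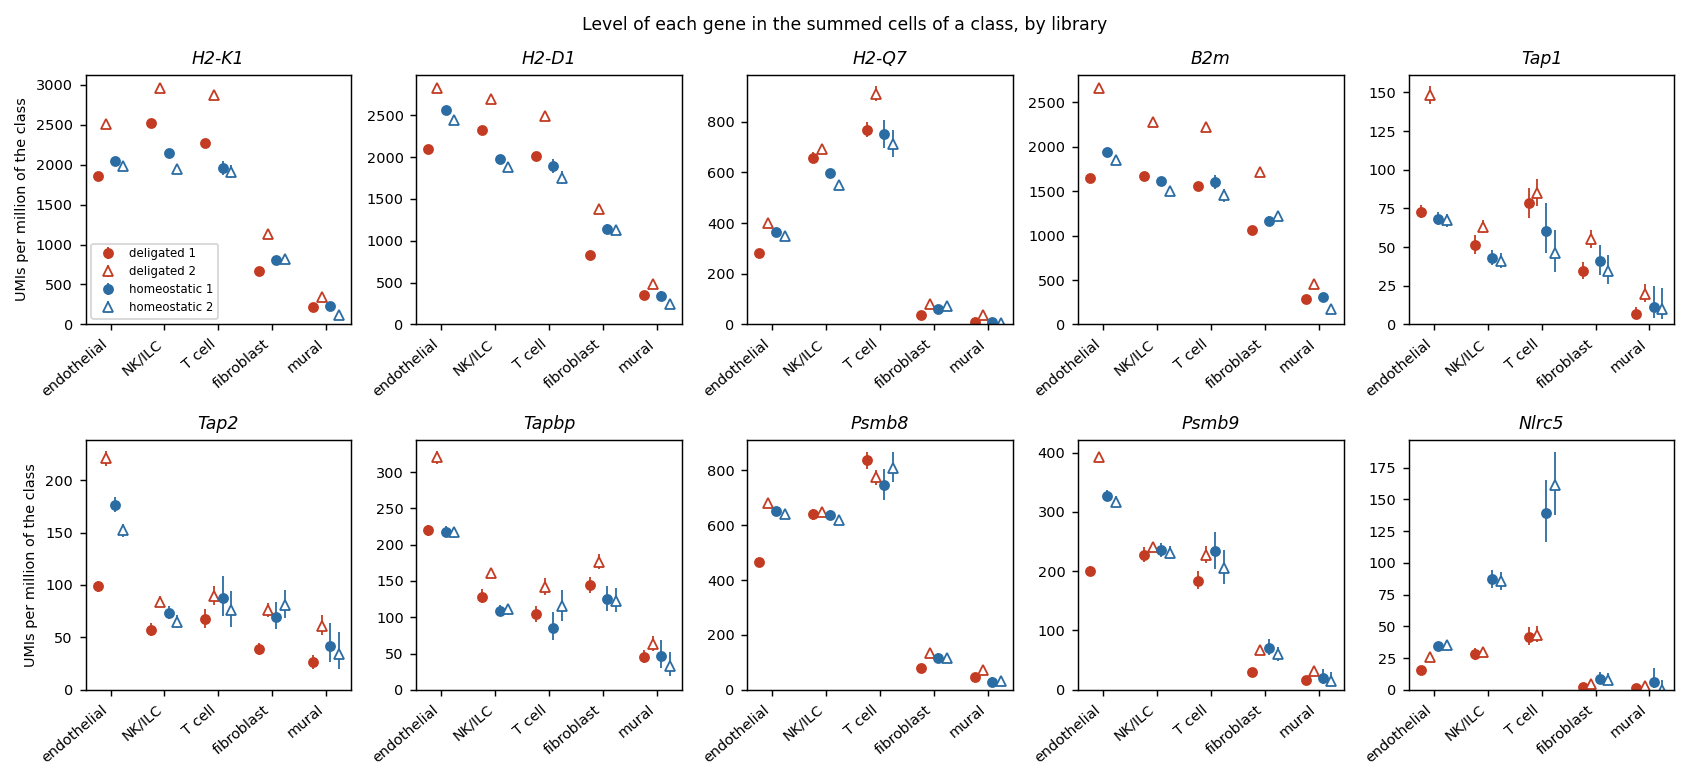
Each panel shows 1 gene in CPM (linear axis from 0) in the 5 compared classes, with 1 point per library and exact 95% Poisson intervals for counting error. Deligated 2 (open red triangles) is the highest point for H2-K1, H2-D1, B2m and Tap2 in the endothelial-like cells, with deligated 1 (filled red circles) the lowest, whereas Nlrc5 in NK and T cell-like cells separates by group.

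The lower level of Nlrc5 in deligated NK and T cell-like cells was the call that held under each alternative that was run. Over 16 alternatives in NK and innate lymphoid-like cells its log2 fold change ranged from -1.83 to -0.82 and the largest edgeR or DESeq2 adjusted p was 0.0042. Over 15 alternatives in T cell-like cells it ranged from -2.04 to -1.04 with a largest edgeR or DESeq2 adjusted p of 0.0087. Intron length moved with this difference: genes with 0.5 to 2 times the intron length of Nlrc5 had a median of -0.60 on the log2 scale in NK and innate lymphoid-like cells (2622 genes) and -0.55 in T cell-like cells (2299 genes), while genes with at most 10 kb of intron had medians of 0.28 and 0.30. Of those genes of like intron length, 17% and 10.4% had a lower fold change than Nlrc5 in the NK and T cell-like cells, and 25% in endothelial-like cells. How much of the difference in Nlrc5 comes from intron counting was not tested beyond these values.

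Fibroblast-like cells resembled endothelial-like cells in how the libraries lay. One of 10 genes passed, Tapbp, which was higher, where 25.0% of 11409 tested genes passed (8.07% higher and 16.9% lower). Tapbp was at 144, 177, 125 and 123 CPM, with both deligated libraries above the homeostatic ones, a log2 difference of 0.44 (SE 0.14 and edgeR adjusted p = 0.043). This call held in 7 of 15 alternatives. It was lost, among others, under DESeq2 and without either homeostatic library. H2-K1 (667, 1134, 810 and 818), H2-D1 (826, 1382, 1146 and 1128) and B2m (1063, 1714, 1163 and 1223) had both homeostatic libraries between the deligated ones. This held for 6 of the 10 genes and for 8.92% of the 10475 genes at a mean of 5 CPM or more. Nlrc5 was at 2.12 and 4.52 CPM (10 and 30 UMIs) in the deligated libraries and at 8.27 and 8.09 (14 and 14 UMIs) in the homeostatic ones, without overlap, and did not pass (edgeR adjusted p = 0.077). The 20 epithelial markers summed to 81.4 and 88.8 CPM in the deligated and to 1127 and 763 in the homeostatic fibroblast-like cells (4, 4, 4 and 6 at 0).

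Mural-like cells, the pericytes and smooth muscle of vessels, had low levels of the whole set. One homeostatic library held 77 of these cells, under the minimum of 100 set for a test, so the comparison was made with a minimum of 50. None of the 9 genes tested passed by edgeR or by DESeq2, where 6.96% of 9714 tested genes passed by edgeR (1.03% higher and 5.93% lower). Unadjusted p-values were below 0.05 for 4 of the genes by edgeR, as for 19.7% of all tested genes, and for 3 by DESeq2, as for 10.2%. H2-K1 was at 225, 347, 226 and 119 CPM and H2-D1 at 350, 481, 345 and 247. Psmb8 had the lowest adjusted p, with 47.4, 70.6, 26.9 and 30.3 CPM and a log2 difference of 1.03 (SE 0.30 and edgeR adjusted p = 0.060). Nlrc5, with 0 to 8 UMIs per library, was too low to be tested. Epithelial markers summed to 17.8 and 125 CPM in the deligated and to 1748 and 1021 in the homeostatic mural-like cells, with 13, 9, 11 and 7 of the 20 at 0.

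Epithelial-like cells, of which there were 40 and 104 in the deligated and 2108 and 2142 in the homeostatic libraries, were not tested. All 10 genes had higher values in both deligated libraries, for example H2-K1 at 1041 and 380 against 92.8 and 94.3 CPM, and B2m at 532 and 334 against 99.7 and 101. The same arrangement was found in 60.1% of the 8896 genes at a mean of 5 CPM or more in these cells, 9 of the 10 among them. The groups also fell into different clusters. In deligated 1, 85.2% of the epithelial-like UMIs and 267 of its H2-K1 UMIs came from 23 cells of cluster 28, led by Pcp4 and Krt14, while cluster 20, led by Dcpp1, gave 64.7% and 60.4% of the UMIs in the homeostatic libraries, with H2-K1 there at 51 and 45.2 CPM. In deligated 2 most UMIs came from cluster 20 (43.4%) and cluster 5 (41.7%), with H2-K1 at 52.5 and 610 CPM. Within clusters 5 and 28 the deligated values of H2-K1 were higher: homeostatic cells had 74.5 and 69.3 CPM in cluster 5, and 252 and 315 in cluster 28, where deligated 1 had 1190. Counts there are small, with 2 H2-K1 UMIs in deligated 1 for cluster 5 and 4 in deligated 2 for cluster 28. Markers of other lists moved with them, and 3 markers of the mural list were among the genes raised in cluster 28 itself. In epithelial-like cells the 15 NK and innate lymphoid markers summed to 513 and 490 CPM in deligated glands (3 and 2 of them at 0) and to 43.1 and 63.2 in homeostatic ones (1 at 0 in each), and the 12 mural markers to 3970 and 422 against 20.7 and 53.1. The 20 epithelial markers summed to 13640 in deligated 1 and to 48210 or more in the other libraries. Their part in the difference was not tested.

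**Figure D3:**
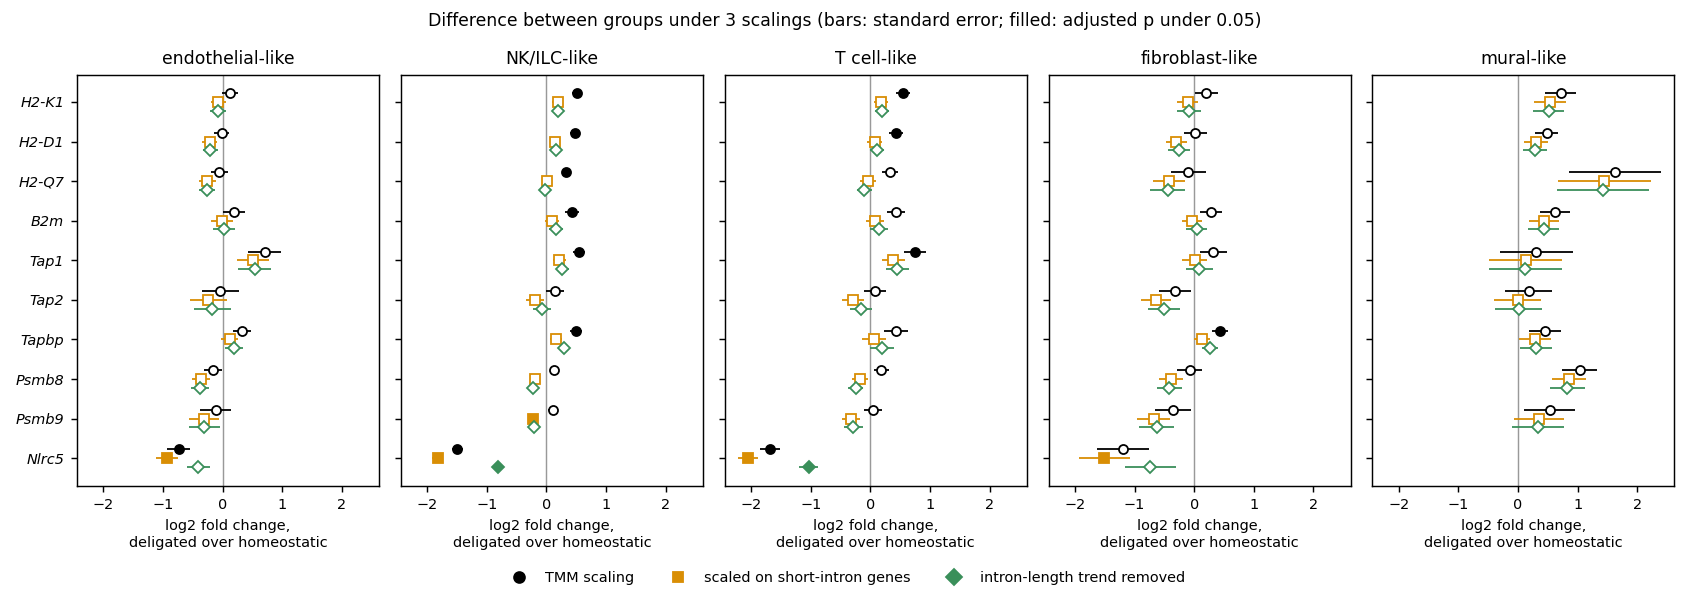
Log2 fold change, deligated over homeostatic, of each gene in the 5 compared classes with its standard error, under TMM scaling (circles), scaling on short-intron genes (squares) and removal of the intron-length trend (diamonds), with filled symbols where the adjusted p is under 0.05. The filled circles of H2-K1 at 0.51 in NK and 0.54 in T cell-like cells become open under both other settings, and Nlrc5 stays filled at the left in these 2 classes.

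The second comparison asks whether the group difference itself varied among classes. A single edgeR model over the 4 classes that met the minimum tested the class by group terms, and 3 of the 10 genes passed, where 8.77% of 14666 tested genes passed. For H2-D1 the group difference was larger by 0.56 on the log2 scale in NK and innate lymphoid-like than in endothelial-like cells and by 0.59 in T cell-like cells (edgeR adjusted p = 0.0085). For H2-K1 these values were 0.46 and 0.56 (edgeR adjusted p = 0.024), but with DESeq2's size factors the H2-K1 term did not pass (edgeR adjusted p = 0.11). Fibroblast-like and endothelial-like cells differed by 0.00 for H2-D1 and 0.04 for H2-K1. For Nlrc5 the group difference was more negative by 0.70 in NK and innate lymphoid-like and 0.80 in T cell-like cells (edgeR adjusted p = 0.036), a term that did not pass without deligated replicate 2 (edgeR adjusted p = 0.17). With scaling on short-intron genes Nlrc5 alone passed (8.18% of all tested genes), and without either homeostatic library none of the 10 did (0.938% and 1.45%).

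The third comparison is between the 2 libraries of a group. In endothelial-like cells all 10 genes were higher in deligated 2 than in deligated 1, by 1.35-fold (H2-D1) to 2.24-fold (Tap2), with exact 95% Poisson intervals apart for all 10. Of 9827 genes at 5 CPM or more, 65.1% were higher in deligated 2, and 24.1% were higher with intervals apart. The median log2 ratio was 0.62 for the 10 genes and 0.09 for those 9827. Fibroblast-like cells had the same direction in 10 of 10 genes, as did 59.7% of 10475 genes, with a median of 0.76 against 0.07, and mural-like cells in 9 of 9 (62.9% of all genes), with 0.68 against 0.11. In NK and innate lymphoid-like cells the 10 ratios were smaller, from 1.01-fold (Psmb8) to 1.47-fold (Tap2), all upward as in 60.9% of all genes, with a median of 0.22 against 0.06. T cell-like cells had 9 of 10 genes in this direction (55.3% of all genes), Psmb8 being the exception at 0.926-fold, with a median of 0.31 against 0.04.

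By the size of the median ratio the homeostatic pair differed less than the deligated pair in all 5 classes, and its largest gap was in mural-like cells. The median log2 ratio of homeostatic 2 over homeostatic 1 over the 10 genes was -0.04 in endothelial-like, -0.06 in NK and innate lymphoid-like, -0.09 in T cell-like and -0.01 in fibroblast-like cells. In mural-like cells, with 105 and 77 cells, it was -0.48 over 9 genes. The gap between the deligated libraries was present in the endothelial-like clusters separately: in cluster 2 (1352 and 2466 cells), in cluster 7 led by Cldn5 and the arterial gene Sema3g (194 and 290 cells) and in cluster 19 led by Selp and Vwf (101 and 88 cells), all 10 genes were higher in deligated 2, with median log2 ratios of 0.61, 0.41 and 0.57. There is 1 library on each side of this ratio, so it has no replicate check, and the Poisson intervals cover counting error only.

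The other pathway lists were set against the same gap in endothelial-like cells. Of 32 regulators and interferon gamma signalling genes at 5 CPM or more, 30 were higher in deligated 2, with a median log2 ratio of 0.42, beside 65.1% and a median of 0.09 over all genes. The guanylate-binding protein Gbp4 was at 129 and 306 CPM in deligated 1 and 2, against 158 and 156 in the homeostatic libraries. H2-T23, the Qa-1 heavy chain read by NKG2A, was at 246 and 655, against 567 and 521. Both genes were chosen after their values had been seen. Of 10 other class I heavy chains 9 were higher, with a median of 0.43, and of 19 proteasome genes 18, with a median of 0.25. Of the 14 genes of peptide loading and trimming 8 were higher, with a median of 0.08, close to the values over all genes. Differences between these lists were not tested.

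Markers of other cells also moved with deligated 2. The 15 NK and innate lymphoid markers summed to 31.7 and 119 CPM in the endothelial-like cells of deligated 1 and 2 (36.6 and 17.2 in the homeostatic ones, none of the 15 at 0 in any library), and to 20.8 and 117 in fibroblast-like cells, whereas NK and innate lymphoid-like cells themselves had 10250 and 11320. The 12 fibroblast markers summed to 62.4 and 228 in endothelial-like cells. The 8 erythroid markers summed to 125 and 640 in endothelial-like, 35.2 and 5693 in mural-like and 56.2 and 2396 in fibroblast-like cells. Their part in the difference between the deligated libraries was not tested.

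**Figure D4:**
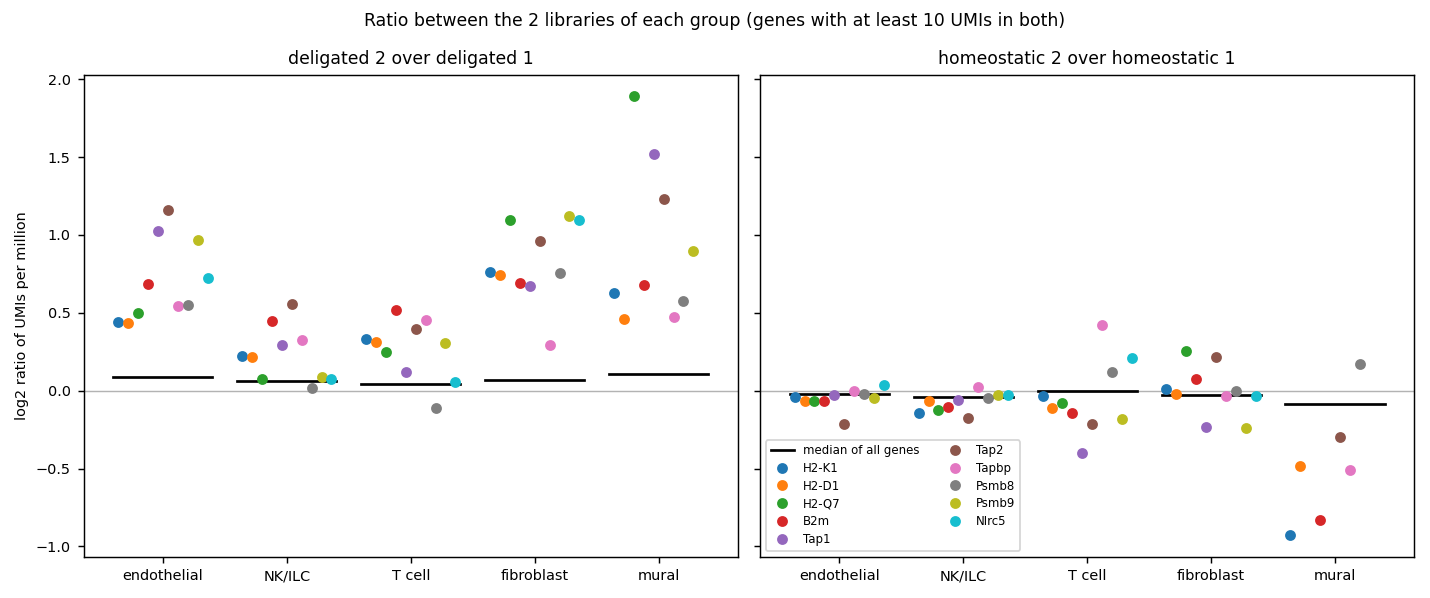
Log2 ratio of CPM between the 2 deligated libraries (left) and the 2 homeostatic libraries (right) for each gene in the 5 compared classes, with the median of all genes at 5 CPM or more as a black line. On the left all points of endothelial-like, fibroblast-like and mural-like cells lie above the black line, and on the right the points of the endothelial-like cells lie near it, with medians of 0.62 and -0.04.

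Leaving out 1 deligated library reversed the endothelial picture. Without deligated replicate 1, 8 of the 10 genes passed as higher in the deligated gland and 1 (Nlrc5) as lower, and without deligated replicate 2, 7 passed as lower and 1 as higher. Of all tested genes, 25.4% passed as higher and 30.3% as lower in the first of these fits, and 25.3% and 30.1% in the second, more than in the fit of all 4 libraries. Fibroblast-like cells gave 5 higher without deligated replicate 1 (17.2% of all tested genes), and 6 lower (21.1%) and 1 higher (16.5%) without deligated replicate 2. In NK and innate lymphoid-like cells the counts were 7 higher and 1 lower (15.5% and 25.0% of all tested genes), and 6 higher and 1 lower (13.2% and 20.6%). The remaining deligated library is assumed to vary like the homeostatic ones in these fits.

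The immunoproteasome was described by pairing each inducible subunit with its constitutive counterpart: Psmb8 with Psmb5, Psmb9 with Psmb6 and Psmb10 with Psmb7. A share of a pair's UMIs compares 1 pair across classes and is not a ratio of proteins. In endothelial-like cells Psmb8 made up 78.4%, 82.8%, 80.9% and 80.9% of its pair in the 4 libraries, the first with an exact (Clopper-Pearson) 95% interval of 77.5% to 79.2% and the second of 82.1% to 83.4%. NK and innate lymphoid-like cells were between 79.2% and 80% and T cell-like cells between 83.3% and 85.7%. Fibroblast-like cells were at 41%, 49.6%, 48.5% and 49.4%, so that deligated 1 was below the other 3 libraries.

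Mural-like cells had Psmb8 shares of 20.2% (interval 16.9% to 23.8%) and 25.8% (22.6% to 29.2%) in the deligated and 9.86% (5.5% to 16%) and 12.4% (7.11% to 19.6%) in the homeostatic libraries. The shares themselves did not overlap between groups, but the intervals of deligated 1 and homeostatic 2 did. For Psmb9 the mural-like shares were 7.63%, 12.8%, 7.87% and 5.51%, and for Psmb10 43.9%, 45.4%, 49.4% and 37.1%, with overlapping groups for both. Homeostatic epithelial-like cells had 23.4% and 21.7% for Psmb8 and 11% and 8.07% for Psmb9. In endothelial-like cells the share of Psmb9 was 57.1% in deligated 1 and 69.3% in deligated 2, on either side of the homeostatic 66.1% and 64.6%. These differences between libraries were not tested, and the intervals cover counting error only.

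**Figure D5:**
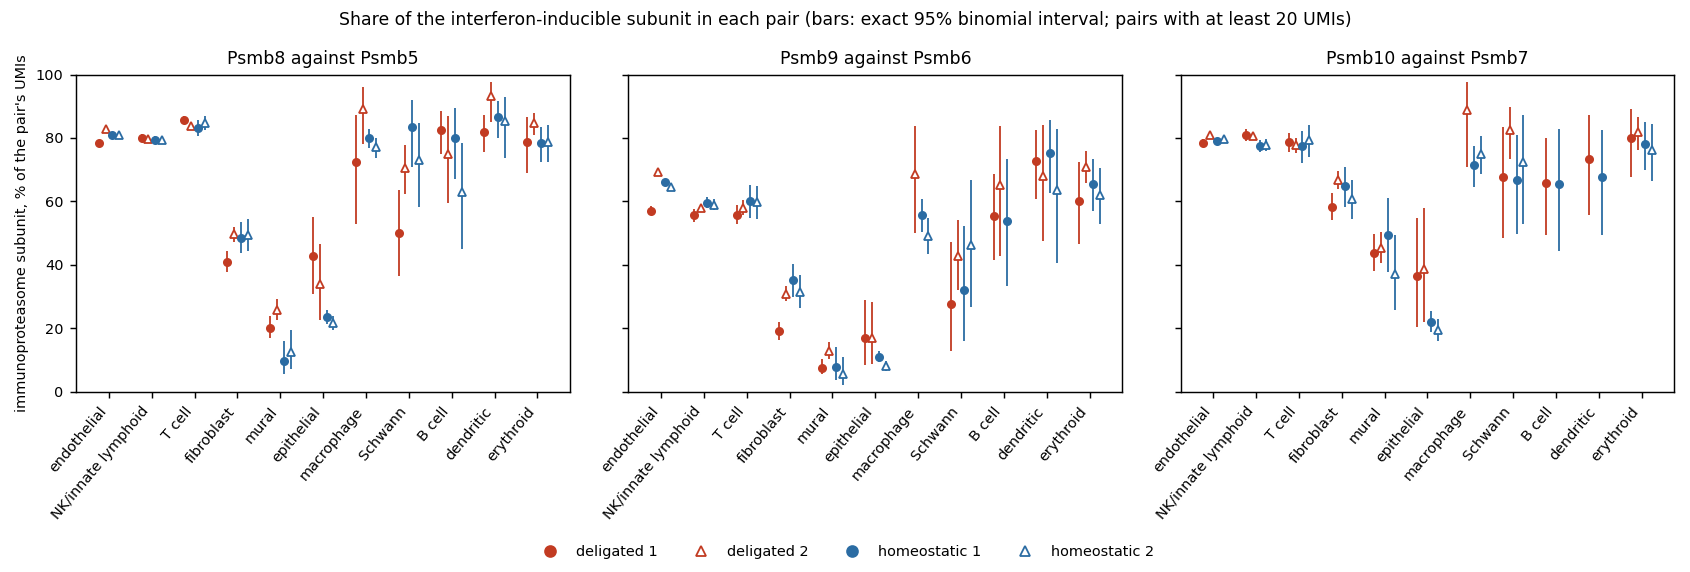
Share of the interferon-inducible subunit in each pair (percent of the pair's UMIs, axis 0 to 100) by class and library, with exact 95% binomial intervals, for pairs with at least 20 UMIs. For Psmb8, NK and innate lymphoid-like, T cell-like and endothelial-like cells lie between 78.4% and 85.7%, B cell-like cells between 62.9% and 82.5% with wide intervals, fibroblast-like cells between 41% and 49.6% and mural-like cells between 9.86% and 25.8%.

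The remaining genes of the pathway were followed through 5 lists, whose counts rest on the same scaling as above. Beside these counts stand the shares of all tested genes that passed as higher, 12.7% for endothelial-like, 16.7% for NK and innate lymphoid-like, 6.04% for T cell-like, 8.07% for fibroblast-like and 1.03% for mural-like cells, and as lower, 22.1%, 26.8%, 15.5%, 16.9% and 5.93%. Among the other class I heavy chains, 4 of 10 tested genes passed as higher and none as lower in NK and innate lymphoid-like cells, and their median was 0.37 (all tested genes 0.01). Among them were H2-Q10 (1.09) and Cd1d1 (0.74), the lipid-presenting molecule. In T cell-like cells 1 of 9 passed, H2-Q10 (1.24), and in fibroblast-like cells 1 of 9, Mr1 (1.25), which presents vitamin B metabolites. In endothelial-like cells 2 of 11 passed as higher, among them Fcgrt (0.66), the neonatal Fc receptor, and 1 as lower, H2-T24 (-0.49). None of 7 passed in mural-like cells. Outside the NK and innate lymphoid-like cells the medians of this list were 0.15 for endothelial-like, 0.29 for T cell-like, 0.21 for fibroblast-like and 0.16 for mural-like cells, where those of all tested genes lay between -0.00 and 0.03.

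Peptide loading and trimming gave 4 higher and 1 lower of 14 genes in endothelial-like cells, including the translocon subunits Sec61a1 (0.51) and Sec61g (0.48). In NK and innate lymphoid-like cells 6 passed as higher and 3 as lower, with Sec61g at 0.72. In T cell-like cells 2 of 14 passed as higher, Sec61g (0.73) and the chaperone Hspa5 (0.59). In fibroblast-like cells Sec61g was higher (0.80) and Hspa5 lower (-0.43), and no gene of 13 passed in mural-like cells. The medians were 0.15, 0.24, 0.35, 0.12 and 0.13 for endothelial-like, NK and innate lymphoid-like, T cell-like, fibroblast-like and mural-like cells. Of the 19 proteasome genes, 5 passed as higher in NK and innate lymphoid-like and 1 in T cell-like cells (26.3% and 5.26% of the list, against 16.7% and 6.04% of all tested genes), and none in the other 3 classes, with medians in the same order of -0.01, 0.18, 0.14, 0.17 and 0.00.

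Among regulators and interferon gamma signalling genes, Socs3, a feedback inhibitor of cytokine signalling, was higher in all 5 classes, by 2.31 on the log2 scale in mural-like cells, 1.73 in endothelial-like cells, 1.31 in T cell-like cells, 1.13 in NK and innate lymphoid-like cells and 0.89 in fibroblast-like cells. Nfyc, a subunit of the factor that binds the Y box, was lower in 4 of the classes, at -1.54 in T cell-like cells, -1.24 in NK and innate lymphoid-like cells, -1.12 in fibroblast-like cells and -0.88 in endothelial-like cells. In NK and innate lymphoid-like cells 8 of 32 passed as higher, among them Irf8 (0.85), Socs1 (0.81) and the GTPase Igtp (0.72), and 4 as lower, among them Creb1 (-0.87) and Nfkb1 (-0.83). Endothelial-like cells had 2 higher, with Rfx5, a subunit of the X box factor, at 0.50, and 2 lower of 33. T cell-like cells had 3 higher and 3 lower of 32, fibroblast-like cells 1 higher and 3 lower of 32 while mural-like cells had 2 higher of 28, with the GTPase Iigp1 at 1.11 in mural-like cells against -0.67 in fibroblast-like ones. The medians of this list were 0.16 for endothelial-like, 0.17 for NK and innate lymphoid-like, 0.08 for T cell-like, -0.06 for fibroblast-like and 0.19 for mural-like cells. The fold changes of this and the other lists were not corrected for intron length, whose part in them was not tested. Genes with 0.5 to 2 times the intron length of Nlrc5 had medians of -0.60 in NK and innate lymphoid-like and -0.55 in T cell-like cells. In fibroblast-like and endothelial-like cells these medians were -0.39 and -0.27.

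Receptors that read class I passed as higher in NK and innate lymphoid-like cells for 4 of 11 genes, with 1 lower, and in T cell-like cells for 1 of 13, Klrc2 (1.01). In endothelial-like cells 3 of 9 passed as higher, Klra9 (2.98), Klra1 (2.81) and Klra7 (2.43), which are NK cell receptors. The medians were 0.17 for NK and innate lymphoid-like, 0.35 for T cell-like and 1.64 for endothelial-like cells, and no gene of this list was tested in the other 2 classes. The levels of these receptors in endothelial-like cells were low: Klra9 was at 1.64, 6.49, 0.61 and 0.417 CPM, against 495, 608, 496 and 465 in NK and innate lymphoid-like cells. The summed NK and innate lymphoid markers of endothelial-like cells were 31.7, 119, 36.6 and 17.2 CPM beside it, and their part was not tested.

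How alike the 10 genes were across classes and libraries was described over the 16 class sums of the 4 tested classes, each gene centred and scaled on log2 of CPM plus 1. The sums of 1 library share its cells and depth, so no test was made. Pearson's correlation of each gene with the mean of the set ran from 0.98 for H2-D1 and 0.96 for Psmb9 to 0.72 for Tap2, 0.66 for Nlrc5 and 0.39 for Tapbp, the lowest. Each of these genes is part of the mean, which raises its value, whereas genes outside the set are not. Between pairs of the 10 genes the correlation ran from -0.34 (Tapbp and Nlrc5) to 0.98 (H2-Q7 and Psmb8). Among 8741 genes outside the set and tested in these classes, the 5 most like the mean were H3f3a (0.98), a histone gene, Psmb10 (0.97), the third inducible proteasome subunit, Gbp4 (0.97), Atp5b (0.96), an ATP synthase subunit, and Ier5 (0.96).

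Within endothelial-like cells, cluster 18 was led by Ifit genes of the type I interferon response and consisted of 254 and 258 homeostatic cells with 5 and 7 deligated ones. Against the largest homeostatic cluster, number 1, Nlrc5 was at 72.3 and 83.7 CPM, against 28.6 and 28.8, ratios of 2.53 and 2.9. Tap1 (1.67 and 1.99) and Psmb8 (1.67 and 1.64) were also higher there, while H2-K1 (1.11 and 1.07) and H2-D1 (1.05 and 1.07) differed by little. These ratios describe clusters made from the same cells and were not tested. Without cluster 18 the endothelial difference of Nlrc5 was -0.61 (edgeR adjusted p = 0.061), against -0.74 with it, so the fold was reduced by little while the call was lost.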

How the data were processed

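Single-cell UMI counts per gene and barcode, deposited by the authors as filtered matrices, were the starting point. Per the file headers they come from Cell Ranger 6.0.1 (both deligated libraries) and 7.0.0 (both homeostatic ones), and the submitters' processing notes name Cell Ranger 6.0.1, Seurat and mm10 for all. The deposited totals were 35662241 and 53898793 UMIs for the deligated and 53633980 and 52379402 for the homeostatic libraries, over 4725, 8713, 12854 and 13266 barcodes.

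Cells with at least 300 genes and at most 10% mitochondrial UMIs were kept, and the cells with the highest simulated-doublet scores were removed, at 0.8% per 1000 cells of a library. Clustering (Python 3.11.15, leidenalg 0.10.2, resolution 1, 3000 variable genes, 30 principal components) left out the 10 genes and all listed pathway genes. Clusters were named from marker lists, with at least 3 markers needed, and details of the naming were set with clusters in view. UMIs were summed per class and library and tested with edgeR 4.0.16 in R 4.3.3 (TMM, filterByExpr, quasi-likelihood, Benjamini-Hochberg), with DESeq2 1.42.0 as an alternative. The procedure was tested on simulated data. A class needed 100 cells per library, and mural-like cells were tested at 50, a choice made after seeing the cell numbers. Class by group terms were tested in 1 edgeR model with library and class as terms. Intron lengths matched 31011 genes (99.9%) of the tables.

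Groups followed the labels, 2 libraries each. The labels do not say whether the numbers 1 and 2 mark a shared animal or day, so no block was used in the main fits. Named genes are all 10 genes of the set and, per class, at most 10 listed pathway genes with the largest fold change among those that passed. The genes and lists were chosen with earlier results of these data known. Of the listed genes, 4 were not found by symbol and were not used here. Alternatives covered scaling, tool, filters, clustering, thinning to 1000 UMIs per cell, intron length and each library left out. Levels near 0 are limited by depth, and intervals cover counting error only.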

Additional observations from a re-analysis of the deposited data

Results flagged for a closer look

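For 3 of the 10 genes the difference between deligated and homeostatic glands itself differed among endothelial-like, NK and innate lymphoid-like, T cell-like and fibroblast-like cells, by the class by group terms of a single edgeR model. Of all 14666 tested genes 8.77% passed. The adjusted p by edgeR was 0.00845 for H2-D1, 0.024 for H2-K1 and 0.0363 for Nlrc5. With mural-like cells added, H2-D1 passed (adjusted p by edgeR 0.012), while H2-K1 (0.085) and Nlrc5 (0.058) did not. On the log2 scale the difference of H2-D1 was -0.01 for endothelial-like, 0.02 for fibroblast-like, 0.47 for NK and innate lymphoid-like and 0.43 for T cell-like cells, and that of H2-K1 was 0.13, 0.20, 0.51 and 0.54. The H2-K1 term did not pass with DESeq2's size factors (adjusted p by edgeR 0.11), nor the Nlrc5 term without deligated replicate 2 (0.17). On short-intron scaling H2-D1 (0.064) and H2-K1 (0.19) did not pass, and none of the 3 terms passed without homeostatic replicate 1 (0.35 to 0.57) or without homeostatic replicate 2 (0.35 to 0.75). For Nlrc5 it was negative in all 4 classes and most negative in T cell-like cells at -1.68. Class sums of 1 library share its preparation, and both homeostatic libraries share a software version and an age that the deligated ones do not have.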

How the results depend on the processing

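Over 758 refits of single genes, 659 kept their direction or stayed uncalled, 45 lost the call, 46 gained one and 8 reversed. Among the first, 50 changed sign without passing on either side. Where values changed, the cause was not tested. Nlrc5 in mural-like cells was too low to be tested as reported, and the 3 alternatives that kept it gave log2 fold changes from -1.18 to -0.15, with adjusted p by edgeR from 0.70 to 0.94.

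Without deligated replicate 1, against without deligated replicate 2, the log2 fold changes in endothelial-like cells were 0.15 and -0.18 for H2-D1, 0.47 and -0.12 for B2m, 0.14 and -0.25 for H2-Q7, 0.40 and -0.65 for Tap2 and 0.26 and -0.60 for Psmb9. In fibroblast-like cells they were 0.32 and -0.33 for H2-D1. In NK and innate lymphoid-like cells H2-Q7 went to -0.018 with the intron-length trend removed and Psmb9 to -0.23 on short-intron scaling.

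Counts of called genes moved as follows, each with the share of all tested genes called under the same setting. Endothelial-like cells (1 gene, 34.8%) gave 0 with the intron-length trend removed (27.9%) and 0 without the cluster led by Ifit genes (34.4%), where Nlrc5 still stood at -0.61, against -0.74. With cells thinned to 1000 UMIs the count stayed at 1 (23.6%), but the gene was Tap1, which was higher, in place of Nlrc5. NK and innate lymphoid-like cells (7, 43.4%) gave 1 with the trend removed (28.9%) and 2 on short-intron scaling (44.4%). T cell-like cells (4, 21.6%) gave 2 under DESeq2 (12.3%), 7 without the filter on low counts (17.0%), 7 at Leiden resolution 2.0 (32.1%), 1 with the trend removed (9.87%) and 1 on short-intron scaling (26.0%). Fibroblast-like cells (1, 25.0%) gave 0 under DESeq2 (16.3%), without the filter on low counts (14.2%), with thinned cells (17.6%) and with the trend removed (16.1%). On short-intron scaling (30.7%) and without doublet removal (26.1%) the 1 gene was Nlrc5, as lower, in place of Tapbp. Mural-like cells (0, 6.96%) gave 4 without the filter on low counts (6.88%). The class by group terms (3, 8.77%) gave 1 on short-intron scaling (8.18%) and 1 with mural-like cells added (8.71%), both chosen after seeing the data, as was the removal of the Ifit-led cluster.

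With 1 library left out at a time, called genes ranged from 0 to 9 for endothelial-like cells, 0 to 7 for fibroblast-like cells, 0 to 4 for mural-like cells, 5 to 8 for NK and innate lymphoid-like cells, 1 to 7 for T cell-like cells and 0 to 8 for the class by group terms. The share of all tested genes that was called moved as well. In each of these classes, and for the class by group terms, it was larger without a deligated library than without a homeostatic one. The ranges therefore do not describe the 10 genes alone, and each of these fits leaves 1 library in a group. Short-intron scaling moved the median log2 fold change of all tested genes to -0.20 for endothelial-like cells, -0.30 for fibroblast-like cells, -0.16 for mural-like cells, -0.31 for NK and innate lymphoid-like cells and -0.34 for T cell-like cells.

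With the replicate number as a block, the counts were 2 for endothelial-like cells (Tap1 gained, 32.0% of all tested genes called), 2 for fibroblast-like cells (Nlrc5 gained, 29.7%), 1 for mural-like cells (Psmb8 gained, 8.15%), 7 for NK and innate lymphoid-like cells (41.3%) and 5 for T cell-like cells (B2m gained, 23.9%), and no call was lost. Libraries of the same number did not deviate together, with correlations of -0.21 for endothelial-like cells, -0.01 for fibroblast-like cells, -0.02 for mural-like cells, -0.16 for NK and innate lymphoid-like cells and -0.06 for T cell-like cells. The labels do not say whether such libraries share a day or handling. With 2 libraries per group these correlations cannot settle it. A crossed pairing, chosen after seeing the data, gave 2 calls in endothelial-like (39.2% of all tested genes) and 7 in NK and innate lymphoid-like cells (47.3%).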
